A study of Mus musculus with 10 samples.

Results

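RNA polymerase II (Pol II) was mapped by chromatin immunoprecipitation and sequencing (ChIP-seq) in R1E cells, a line of mouse embryonic stem cells, once in untreated cells and once in cells exposed to 0.5 uM Adriamycin for 8 h. The members described here are all Pol II peaks of these 2 libraries on the 19 numbered chromosomes and X, 81060 in untreated cells and 59422 after Adriamycin, or 140482 of the 543318 peaks that the series holds on those chromosomes. Both groups had a mixed C57BL/6 and 129Sv background, were below passage 20 and grew in serum with leukemia inhibitory factor, and no other allele or agent is named in the labels. The other 8 libraries of the series, of the histone marks H3K4me3, H3K79me2 and H3K27me3 and of the RNA-binding protein hnRNP L in the same 2 conditions, served to sort the Pol II peaks by chromatin. Each condition had 1 Pol II library, so every difference below is between 2 peak lists and has no replicate check. No p-value is given for it. Coordinates are on mouse build mm9, as in the files, and the antibody, like the form of Pol II it recognises, is not given in the labels.

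Pol II transcribes all protein-coding genes. It is recruited to promoters, usually pauses shortly after starting, and is then released to travel through the gene body. H3K4me3 marks active and poised promoters, and H3K79me2, made by the enzyme Dot1l, covers the transcribed part of active genes from just behind the promoter. H3K27me3 is deposited by Polycomb repressive complex 2, and in embryonic stem cells it shares many developmental gene promoters with H3K4me3, a combination called bivalent. Adriamycin (doxorubicin) inserts between DNA bases, traps topoisomerase II on cut DNA and activates the p53 response.

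The peaks were first held against their label. A Pol II peak was sorted as H3K4me3 when it overlapped an H3K4me3 peak of its own condition by at least 1 bp, and otherwise by H3K79me2, then by H3K27me3, then as carrying no mark. The strength of a peak was read from the score that the authors' peak caller gave it, which runs from 50 upwards. It ranks or filters the peaks of each list, and since it can depend on the unknown read depth, the same score need not stand for the same Pol II level in both lists. The strongest Pol II peaks lay at promoter chromatin. Of the untreated peaks with a score of 3100 or more, 90.02% overlapped H3K4me3 and 2.86% no mark. Of the untreated peaks with a score of 50 to 100, 17.0% overlapped H3K4me3 and 44.2% no mark. The Adriamycin list had the same order, with H3K4me3 at 87.4% of peaks at 3100 or more and at 19.4% of those at 50 to 100.

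The first question was how the shape of the Pol II list differed between untreated and treated cells. The Adriamycin list was shorter, but its typical peak was nearly as wide. The covered length was 77.4 Mb without and 54.7 Mb with Adriamycin, a ratio of 0.707. The median width was 694 bp in untreated cells and 691 bp after Adriamycin, and the middle 50% of widths ran from 503 to 1092 bp and from 508 to 1063 bp. The widest peak measured 34466 bp in the untreated list and 16709 bp in the Adriamycin list. Peaks of at least 10 kb numbered 51 and 23. Read depth was unknown, and a difference in depth and a difference in Pol II cannot be told apart in these lists.

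Most of the Pol II length that was found in untreated cells alone came from whole peaks and not from trimmed edges. Untreated peaks and Adriamycin peaks had 41.2 Mb in common. Another 36.2 Mb was covered in untreated cells only, of which 26.1 Mb (72.1%) lay in peaks that no Adriamycin Pol II peak overlapped and 10.1 Mb (27.9%) in parts of peaks that did have a partner. In the other direction, 13.5 Mb was covered after Adriamycin only, with 9.15 Mb (67.7%) in peaks without a partner. A partner is a Pol II peak of the other list that overlaps by at least 1 bp. Peaks without a partner were often close to one. Of the untreated peaks without a partner, 61.2% lay within 5 kb of an Adriamycin Pol II peak (exact Clopper-Pearson 95% interval 60.8 to 61.7%), and 94.9% within 50 kb. For the Adriamycin peaks without a partner these shares were 58.8% (58.0 to 59.6%) and 93.0%. All intervals here are of this kind and cover counting error only.

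Of all untreated Pol II peaks 48.0% had no partner, and of all Adriamycin peaks 26.1%. Both shares fell with score and with width. In untreated cells 73.7% of peaks with a score of 50 to 100 had no partner (73.2 to 74.1%), against 26.5% at 200 to 500 and 0.207% at 3100 or more (0.0673 to 0.483%). Within the Adriamycin list the share fell from 43.5% through 4.02% to 0 of 269 (interval up to 1.36%) over its own score classes. Within a score class the part of width differed. In untreated cells at scores of 50 to 100, 73.9% of peaks under 1000 bp and 66.8% of wider ones had no partner. Among untreated peaks with a score of 100 to 200, 52.5% of those under 1000 bp and 51.1% of those of 1000 bp and over had no partner, with overlapping intervals (51.7 to 53.3% and 49.4 to 52.8%). Within the Adriamycin list, narrower and wider peaks scoring 100 to 200 stood at 18.9% and 11.99%, and their intervals did not overlap (18.2 to 19.7% and 10.9 to 13.1%). At scores of 500 to 1000 the wider untreated peaks more often had no partner, at 9.27% against 5.24% (8.42 to 10.2% and 4.24 to 6.38%).

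**Figure D1:**
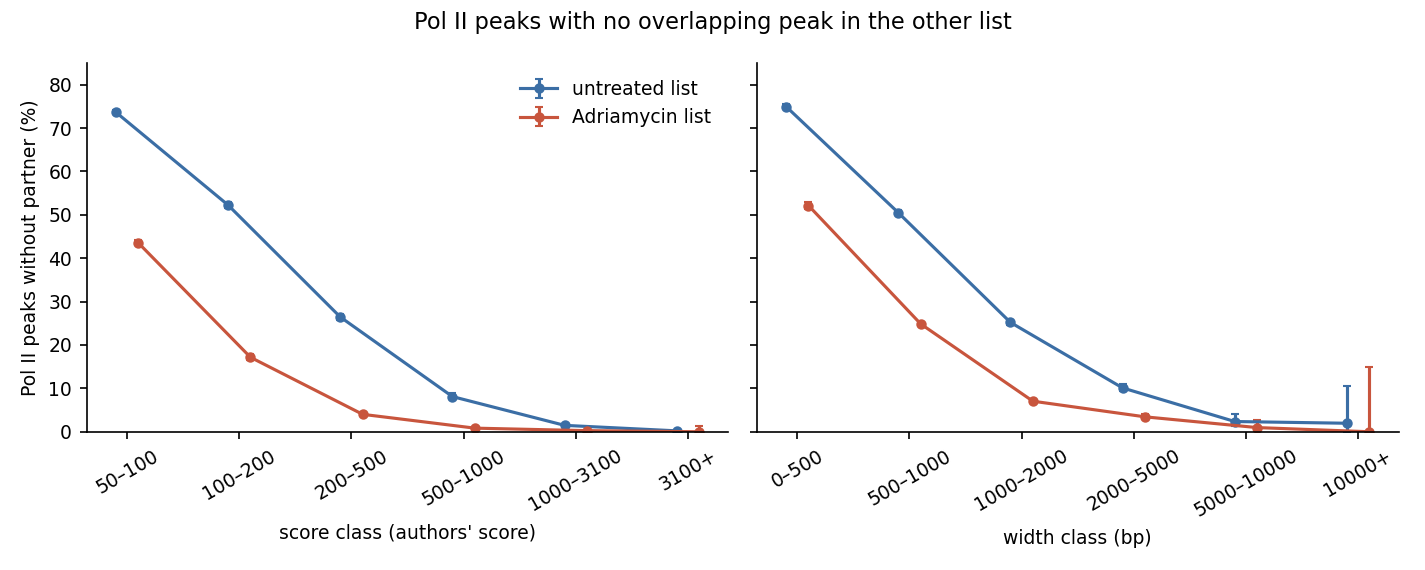
Share of Pol II peaks without an overlapping peak in the other list (%), by score class (left) and width class (right), for the untreated list (blue) and the Adriamycin list (red). Points are shares and bars are exact 95% intervals. In both lists the shares fell as score or width rose, from 73.7% to 0.207% over the score classes of the untreated list.

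Matched peaks were slightly narrower after Adriamycin at every kind of chromatin except Polycomb chromatin. Among 34674 Pol II peaks that matched 1 to 1, 62.7% were narrower after Adriamycin, and the median difference was -58 bp (interval -60 to -55 bp). Both edges moved inwards by similar amounts, with medians of 21 bp at the lower coordinate and 17 bp at the higher. The median difference was -74 bp at H3K4me3, -69 bp at H3K79me2 without H3K4me3 and -39 bp at peaks with no mark. At the 1605 matched peaks with H3K27me3 and neither other mark, 56.4% were wider, and the median difference was 24 bp (15 to 34 bp). That difference remained above 0 with scores of at least 100 (36 bp, 21 to 49 bp). With equal numbers of top-scoring peaks in both lists it was 6 bp, with an interval that included 0 (-4 to 16 bp).

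Some peaks met several peaks of the other list. In the untreated list 3551 peaks (4.38%) overlapped at least 2 Adriamycin peaks, and they covered 10.1 Mb with a median width of 2281 bp. In the Adriamycin list 2334 peaks (3.93%) overlapped at least 2 untreated peaks and covered 4.80 Mb. Of the matched peaks, the greatest narrowing was on chromosome 9 at 21642884-21653637, a 10754 bp untreated peak. The Adriamycin list held there a peak of 715 bp. Both lists of H3K4me3 and both of H3K79me2 had peaks in that place. The greatest widening was on chromosome 17, where an untreated peak of 3016 bp at 56854790-56857805 matched an Adriamycin peak of 12118 bp at 56845675-56857792. On chromosome 7 a peak of 1189 bp at 4695680-4696868 matched one of 9383 bp at 4695908-4705290.

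The second question was where in the chromatin Pol II length differed. To keep the mark lists' own changes out of the comparison, the genome was divided by marks found in both conditions. Pol II length was lower after Adriamycin at promoters, gene bodies and unmarked DNA and higher in Polycomb chromatin. At bases with H3K79me2 in both conditions and no other mark in either, the length under Pol II was 16.7 Mb before and 10.02 Mb after treatment (ratio 0.600). That was 18.3% and 11.0% of the 91.2 Mb of such gene-body chromatin. The ratio was 0.788 at bases with both H3K4me3 and H3K79me2 (9.86 and 7.77 Mb) and 0.774 at H3K4me3 alone (11.4 and 8.79 Mb). At bases with none of the 3 marks in either condition it was 0.678 (21.6 and 14.7 Mb). Each of these 4 classes had a lower length after Adriamycin on 20 of 20 chromosomes.

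Polycomb chromatin went the other way. At bases with H3K27me3 in both conditions and no other mark, the length under Pol II was 1.35 Mb before and 1.74 Mb after treatment, a ratio of 1.29, or 2.76% and 3.56% of the 48.9 Mb of that class. Length was higher after Adriamycin on 20 of 20 chromosomes, from a ratio of 1.03 on chromosome 10 to 1.65 on chromosome 14. Of the Adriamycin length there, 58.3% lay outside untreated Pol II peaks, while 46.3% of the untreated length was not covered after treatment. With scores of at least 100 the ratio was 1.07 and 13 of 20 chromosomes were higher, and with equal numbers of top-scoring peaks it was 1.79 and 20 of 20 were higher. Bivalent bases, with H3K4me3 and H3K27me3 in both conditions, had 1.53 and 1.42 Mb of Pol II, a ratio of 0.929, and 3 of 20 chromosomes were higher. That ratio was 0.823 with scores of at least 100 and 1.07 with equal numbers.

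**Figure D2:**
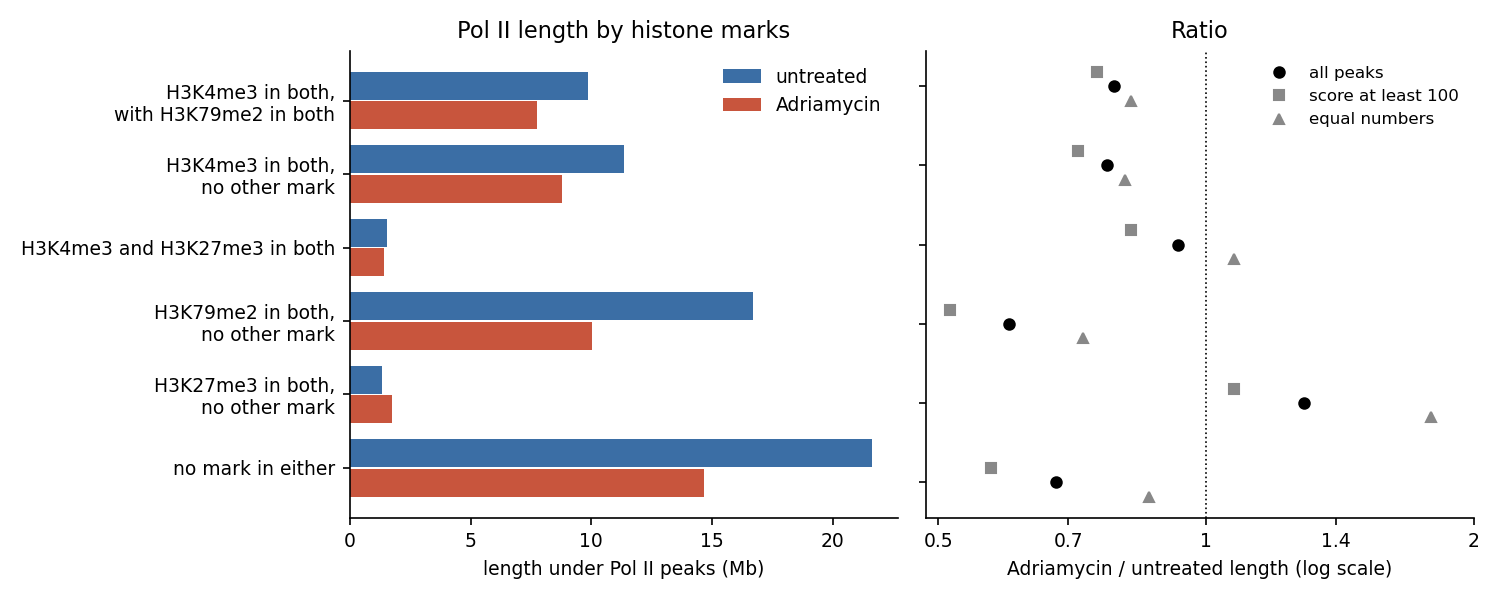
Length under Pol II peaks (Mb, left) in untreated (blue) and Adriamycin-treated cells (red) by histone marks found in both conditions, and the ratio of Adriamycin to untreated length (right, log scale) for all peaks, for scores of at least 100 and for equal numbers of top-scoring peaks. Chromatin with H3K27me3 and no other mark was the class above 1 in all 3 versions (1.29, 1.07 and 1.79), and chromatin with H3K79me2 and no other mark had the lowest ratio of the 6 classes in each (0.600, 0.515 and 0.727).

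These classes differ in Pol II strength, so the peaks of each list were also compared between classes at equal score. At scores below 1000, the share of untreated peaks without a partner was lowest at H3K27me3 alone and differed less among the remaining classes. At scores of 200 to 500 it was 25.4% at H3K4me3 (24.29 to 26.56%), 28.1% at H3K79me2 without H3K4me3 (26.61 to 29.69%) and 27.6% at no mark (26.1 to 29.1%). The intervals at H3K4me3 and at H3K79me2 without H3K4me3 did not overlap. At H3K27me3 alone the share was 16.1% (12.4 to 20.4%). Untreated peaks with scores of 50 to 100 stood, in the same order of classes, at 71.3%, 74.5%, 75.3% and 64.0%. Within the Adriamycin list the classes differed in their share of new peaks. At scores of 200 to 500 there, 1.81% of Adriamycin peaks at H3K4me3 had no untreated partner (1.46 to 2.21%), 3.97% at H3K79me2 without H3K4me3 (3.08 to 5.03%), 8.11% at no mark (6.88 to 9.47%) and 22.4% at H3K27me3 alone (17.1 to 28.5%). At scores of 50 to 100 the order was the same, with 1427 of 5707 peaks at H3K4me3, 35.9%, 51.8% and, at H3K27me3 alone, 70.03%. The H3K27me3 list itself was shorter in covered length after Adriamycin on all 20 chromosomes, with ratios of 0.707 to 0.794, and the part of that in the Pol II values was not tested.

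The third question was whether promoter and gene-body Pol II differed to the same degree. Since no gene annotation was used here, gene direction was read from the marks. Of 29705 H3K4me3 peaks matched 1 to 1 between conditions, 3279 had at least 3 kb of H3K79me2 within 10 kb on 1 side and at most 0.5 kb on the other, in both conditions. Distance was counted from the centre of the H3K4me3 peak towards the H3K79me2 side. With all peaks, the ratio of Adriamycin to untreated places was higher near the promoter centre than farther out on either side. At the centre, 81.0% of these places lay in an untreated Pol II peak (79.6 to 82.3%) and 72.7% in an Adriamycin peak (71.2 to 74.3%), a ratio of 0.898. At 1.5 kb, behind the promoter, the shares were lowest between promoter and body, at 18.1% and 12.5% (ratio 0.687). They rose again to a second maximum at 6.25 kb, at 26.1% (24.6 to 27.6%) and 19.2% (17.9 to 20.6%). That maximum lies inside the 10 kb in which the set was required to hold H3K79me2. Untreated H3K4me3 was also more frequent there, with 12.3% of places at 2.5 kb, 17.5% at 6.25 kb and 12.4% at 10 kb. On the side without H3K79me2, 5.40% and 4.36% of places 5 kb away lay in a Pol II peak.

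In this set the ratio was lower in the body than at the promoter. Untreated Pol II peaks had a median score of 337.51 at H3K4me3 and 101.21 at H3K79me2 without H3K4me3. Promoter and body were not matched on score, so the part of score in their ratios was not tested. Over the 2 kb around the centre, Pol II length was 3.68 Mb before and 3.14 Mb after treatment (ratio 0.853), and from 2 to 10 kb 6.16 and 4.36 Mb (ratio 0.707). From 10 to 20 kb the ratio was 0.689 and from 20 to 30 kb 0.703, but at 20 kb only 35.5% of places still lay in an untreated H3K79me2 peak. The ratio of the whole list was 0.707, so the promoters of this set stood above the list and their bodies close to it. Other promoters differed over the same 2 kb. The ratio was 0.752 at 3591 with H3K79me2 on both sides and 0.963 at 5574 with H3K27me3 and no H3K79me2. At 6476 with neither mark it was 0.677, below the list. Those 6476 had 0.584 with scores of at least 100 and 0.744 with equal numbers. The 5574 with H3K27me3 had 0.818 and 1.13 under these settings, so their direction was reversed with equal numbers. In the set of 3279, the promoter and body ratios were 0.816 and 0.663 with scores of at least 100, and 0.882 and 0.785 with equal numbers. On the side without H3K79me2, from 10 to 2 kb away, the ratio was 0.753 with all peaks. There it was 0.634 with scores of at least 100 and 0.898 with equal numbers. Among 668 of these promoters with at least 20 kb of H3K79me2 over the next 30 kb, the ratio was 0.841 at the promoter, 0.675 from 2 to 10 kb, 0.623 from 10 to 20 kb and 0.634 from 20 to 30 kb. In that set the 10 to 20 kb ratio was below the 2 to 10 kb ratio also with scores of at least 100 (0.559 and 0.615) and with equal numbers (0.707 and 0.736).

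**Figure D3:**
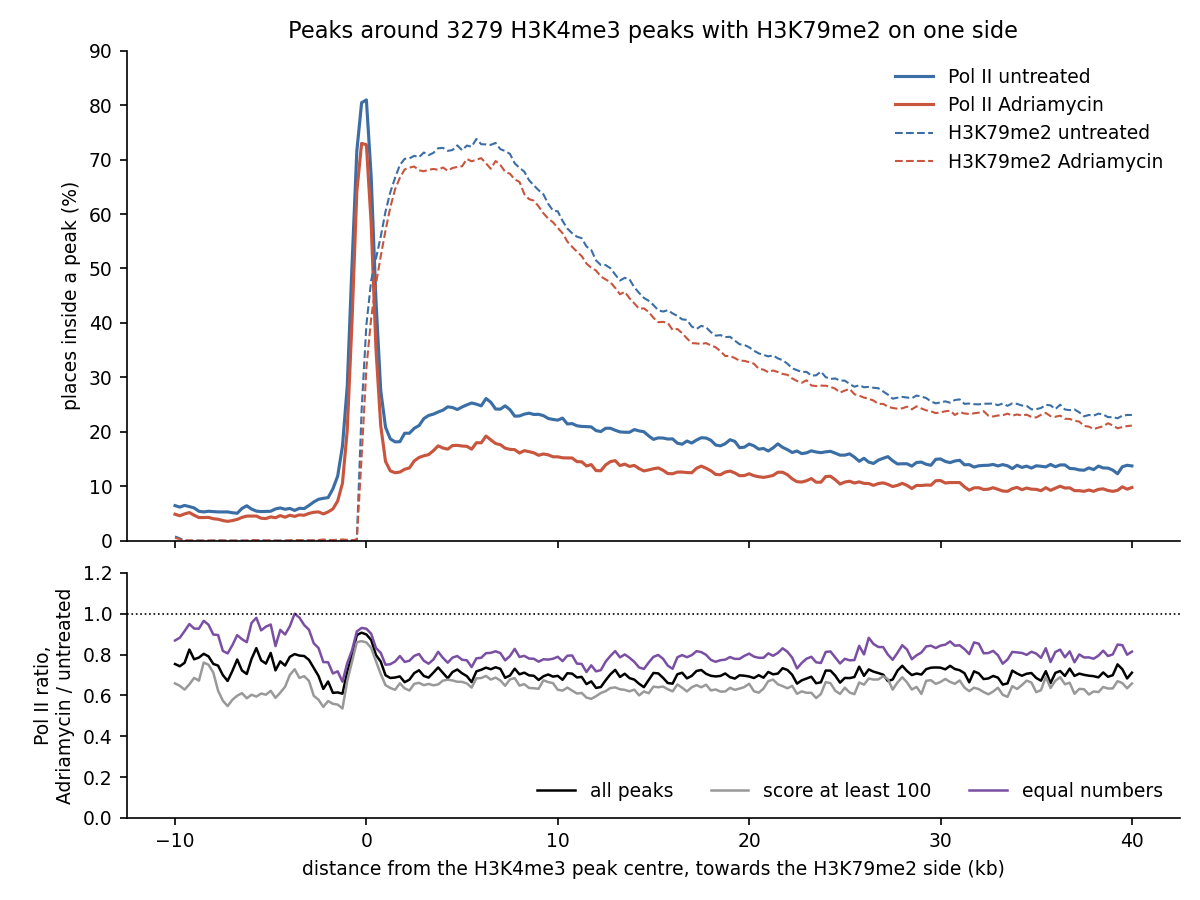
Share of places inside a peak (%, upper panel) at each distance (kb) from the centre of 3279 H3K4me3 peaks, with the H3K79me2 side on the right, for Pol II (solid) and H3K79me2 (dashed) in untreated (blue) and Adriamycin-treated cells (red), and the Pol II ratio of Adriamycin to untreated (lower panel) under 3 choices of peaks. The ratio was 0.898 at the centre with all peaks, 0.698 at 1 kb, 0.665 at 2 kb and 0.711 at 40 kb. On the side without H3K79me2 it was 0.715 at 1 kb and 0.668 at 2 kb.

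Body Pol II was lower also where the promoter peak was found in both conditions. At 2667 such promoters, Pol II covered a mean of 1.72 kb of the 8 kb body stretch in untreated cells and 1.199 kb after Adriamycin (ratio 0.696), with less length at 52.6% and more at 14.9%. At the 305 promoters with a Pol II peak in untreated cells only, the means were 2.56 and 1.76 kb (ratio 0.686). At 59 promoters with a Pol II peak after Adriamycin only, the body means were 2.93 and 2.64 kb. At 248 with promoter Pol II in neither list they were 2.47 and 1.88 kb (ratio 0.759). Body Pol II peaks were thus also listed at places without a listed promoter peak, and the reason was not tested. At promoters with Pol II in both conditions, body Pol II was found in 1700 untreated cases and was absent after Adriamycin from 411 of them (24.2%, 22.2 to 26.3%), and it appeared in 104 of the 967 others (10.8%). Over all 3279 promoters the shares were close to these, with 468 of 2199 absent (21.3%, 19.6 to 23.1%) and 125 of 1080 new (11.6%). The body ratio of all 3279 was 0.707. The absent share was 15.2% (10.95 to 20.4%) with promoter Pol II in untreated cells only. It was 4.65% (0.568 to 15.8%) with promoter Pol II after Adriamycin only and 8.45% (5.09 to 13.03%) with it in neither list.

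Promoter types were set side by side at equal Pol II score. The share of promoters whose Pol II was absent after Adriamycin was highest at promoters with H3K79me2 on both sides or with neither H3K79me2 nor H3K27me3. At an untreated score of 100 to 200, Pol II was absent from 38.6% of promoters with H3K79me2 on 1 side (32.6 to 44.9%), 51.9% of those with H3K79me2 on both sides (46.9 to 56.8%) and 50.3% of those with neither H3K79me2 nor H3K27me3 (46.6 to 54.1%). At promoters with H3K27me3 and no H3K79me2 the share was 34.2% (29.7 to 38.9%). At a score of 1000 or more it was 1.28%, 2.06%, 1.86% and 0 of 100 (interval up to 3.62%). New promoter Pol II was found most often at the H3K27me3 promoters. Of those with an Adriamycin score of 100 to 200, 21.8% had no untreated Pol II within 1 kb (18.1 to 25.9%), against 2.22% (1.02 to 4.17%), 5.53% (3.45 to 8.32%) and 5.49% (3.85 to 7.55%) at the other 3 types, in the order above.

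Longer transcribed regions had lower Pol II ratios. H3K79me2 peaks of both conditions were joined over gaps of up to 3 kb. The domains were not split by H3K4me3, and bases with both marks had a higher ratio than those with H3K79me2 alone (0.788 and 0.600). The part of promoter share in the values by length was not tested. In 2486 domains of 5 to 10 kb Pol II covered 24.6% of the length in untreated cells and 18.2% after Adriamycin (ratio 0.740). In 2322 domains of 20 to 50 kb it covered 22.2% and 14.3% (0.646), in 537 domains of 50 to 100 kb 18.9% and 12.1% (0.640), and in 75 domains of 100 kb or more 16.1% and 8.21% (0.510). Pol II length was lower in 86.7% of these 75 longest domains and higher in 13.3%. With lists of equal number the ratio was 0.816 at 5 to 10 kb and 0.640 at 100 kb or more, though 50 to 100 kb (0.747) was no lower than 20 to 50 kb (0.735).

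Pol II domains, made from Pol II peaks in the same way, were fewer and shorter after Adriamycin. There were 805 untreated and 346 Adriamycin domains spanning 20 kb or more, and 50 and 14 spanning 50 kb or more. Joining over 3 kb depends on how densely a list is filled. The median gap between neighbouring peaks was 2313 bp in the untreated list and 3980 bp in the Adriamycin list. The part of this spacing in the domain counts was not tested. In untreated cells the longest, on chromosome 17 at 56441705-56575507, held 62 peaks over 133.803 kb. Pol II covered 74.1% of it in untreated cells and 55.1% after Adriamycin, and the longest Adriamycin domain that overlapped it was 69.358 kb. On chromosome 2 at 32011305-32115987 a domain of 104.683 kb went from 75.3% to 59.4% covered. The longest Adriamycin domain, on chromosome 4 at 137052170-137131276, was covered to 68.4% in untreated cells and 68.1% after Adriamycin. The second, on chromosome 8 at 124966567-125041703, rose from 44.9% to 65.0% covered, while H3K79me2 covered 47.8% and 40.6% of it.

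By chromosome, Pol II length after Adriamycin was lower on 20 of 20. On the numbered chromosomes the ratio ran from 0.604 (chromosome 3) to 0.746 (chromosome 8), with a median of 0.709. Chromosome X had 0.972 Mb before and 0.578 Mb after treatment (0.594). New peaks were few on X. There, 55 of its 720 Adriamycin peaks had no untreated partner (7.64%, 5.81 to 9.83%), against 21.2 to 33.2% on the numbered chromosomes. At scores of 50 to 100 the shares were 17.7% on X (13.1 to 23.0%) and 43.8% on the numbered chromosomes (43.2 to 44.3%), and at 100 to 200 they were 5.03% (2.32 to 9.33%) and 17.3% (16.7 to 17.99%). With equal numbers of top-scoring peaks X stood at 11.8% and the others at 33.5%. Untreated peaks without a partner were 46.1% on X and 43.1 to 53.2% elsewhere. The ratio on X was 0.357 at gene-body bases with H3K79me2 alone, 0.357 at unmarked bases and 0.756 at bivalent bases. In each of these classes it was the lowest of 20 chromosomes. It was 0.797 at bases with H3K4me3 and H3K79me2 and 1.59 at bases with H3K27me3 alone. Each class holds only a part of the 0.972 and 0.578 Mb of X, so these ratios rest on short lengths.

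**Figure D4:**
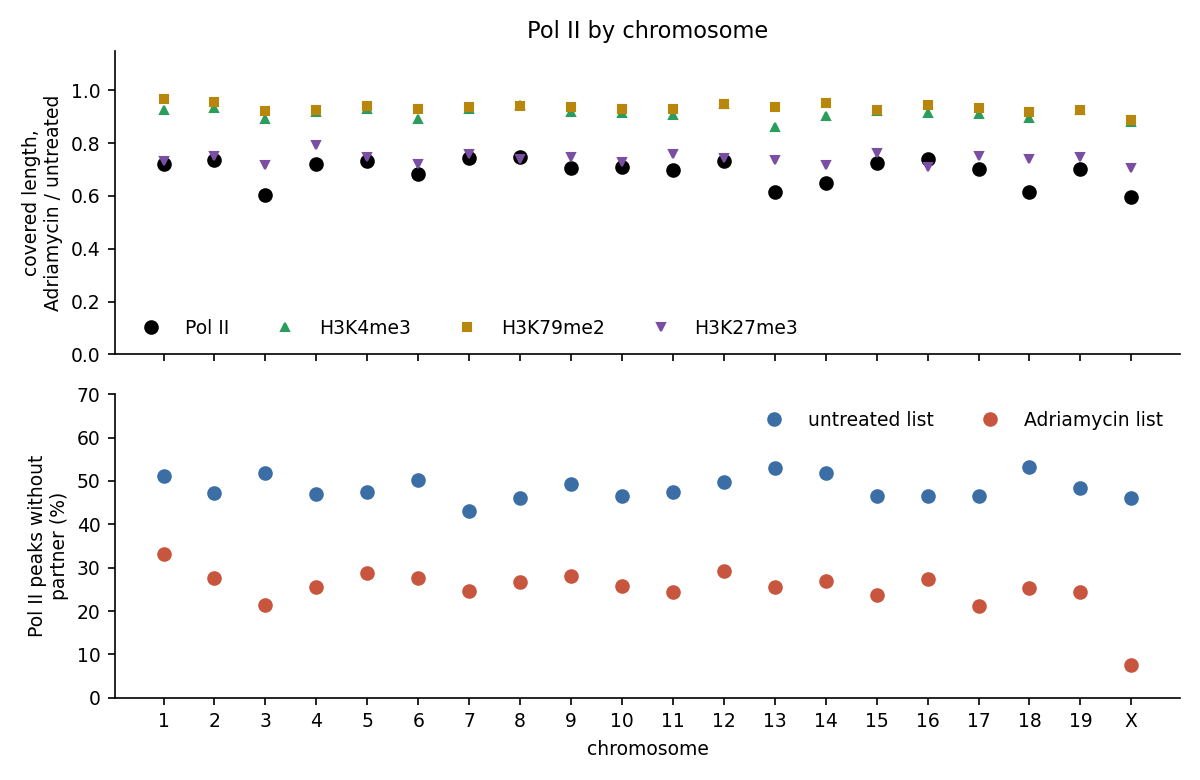
Ratio of Adriamycin to untreated covered length for Pol II and 3 histone marks (upper panel) and share of Pol II peaks without a partner in each list (%, lower panel) on each chromosome. Pol II lay between 0.594 and 0.746, and on X 7.64% of Adriamycin peaks had no partner against 21.2% or more on every numbered chromosome.

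The last question was which single regions differed most. High-scoring Pol II peaks far from any peak of the other list were rare in both lists. Among peaks of any score, 15076 of 81060 untreated peaks (18.6%) had no Adriamycin Pol II peak within 5 kb. In the other direction the count was 6382 of 59422 (10.7%). Of 15311 untreated peaks with a score of at least 500, 188 (1.23%) had no Adriamycin Pol II peak within 5 kb, and of 7858 such Adriamycin peaks 12 (0.153%) had no untreated one. These counts were 188 and 31 with equal numbers of top-scoring peaks and 573 and 50 with scores of at least 300, and with depth unknown a shared score limit does not make them a comparison of Pol II. The 188 lay on 20 chromosomes and had a median width of 1470.5 bp. Before treatment 146 of them held H3K4me3 (77.7%, 71.03 to 83.4%), close to the 77.6% of all 15311, and after it 113 (60.1%, 52.7 to 67.2%, against 75.9%). H3K79me2 was found at 71 before (37.8%, 30.8 to 45.1%, against 63.01%) and 55 after, and H3K27me3 at 15 (7.98%, against 9.12%) and 12. No mark was found in either condition at 25 (13.3%, 8.79 to 19.002%, against 8.44%). The 12 Adriamycin peaks had a median width of 2340 bp. None of the 12 held H3K79me2 in either condition (interval up to 26.5%), while 70.9% of all 7858 held it before and 68.2% after. H3K27me3 was found at 5 before and 6 after, against 9.15% and 7.18% of the 7858, and H3K4me3 at 3 and 5, against 84.4% and 84.5%. The widest, 6323 bp on chromosome 6 at 84523732-84530054 (score 762.63), lay 36.2 kb from any untreated Pol II peak, with 3 H3K27me3 peaks before and 2 after and H3K4me3 after treatment only.

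At these untreated regions the promoter mark was found after treatment in some and not in others. On chromosome 5 a 3652 bp peak at 110895003-110898654 (score 2075.56) lay 11.7 kb from the nearest Adriamycin Pol II peak, with H3K4me3 and H3K79me2 in both conditions. On chromosome 9 the peak at 113616645-113617726 (score 1767.95) likewise kept both marks. On chromosome 3 at 8526559-8527345 (score 1826.57) H3K4me3 and H3K79me2 were found in untreated cells and neither after Adriamycin. A second strong peak on that chromosome, at 8562908-8565475 (score 1658.6), lay 51.2 kb from any Adriamycin Pol II peak and held none of the 3 marks. The widest of the 188, 10305 bp on chromosome 11 at 3028758-3039062 (score 1957.42), also held no mark and lay 62.8 kb from the nearest Adriamycin Pol II peak.

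Some whole stretches were found in 1 list only. Of 6174 untreated Pol II domains of at least 5 kb, 388 (6.28%, 5.69 to 6.92%) met no Adriamycin Pol II peak, and of 4070 such Adriamycin domains 101 (2.48%, 2.03 to 3.01%) met no untreated one. Long domains were thus met more often than domains in general. The other list met 93.7% and 97.5% of them, against 61.9% of all 36828 untreated and 76.2% of all 32709 Adriamycin domains of any length. The untreated domain with most Pol II among the 388 was on chromosome 1 at 134086384-134107260, with 8 peaks covering 17.1 kb. There, H3K4me3 peaks numbered 2 before and 5 after treatment and H3K79me2 peaks 2 and 3, and H3K27me3 had 3 in each condition. The Adriamycin list had its counterpart on chromosome 9. The 100 kb at 103300001-103400000 held 0 untreated Pol II peaks and 18 after Adriamycin, covering 18.9 kb. Of the marks, H3K27me3 had 4 peaks before and 3 after, H3K4me3 0 and 1, and H3K79me2 none in either.

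Over windows of 100 kb with at least 10 kb of Pol II in the 2 lists together, 3270 of 3867 had less Pol II length after Adriamycin and 597 had more. With 1 kb added to each value, 759 windows (19.6%) were at least 2-fold lower and 86 (2.22%) at least 2-fold higher, around a median log2 ratio of -0.49. H3K79me2 was found in both conditions in the 5 windows with the greatest losses and the 5 with the greatest gains, as it was in 95.3% of all 3867. The window at 71600001-71700000 of chromosome 1 had 45.5 kb of Pol II before and 6.72 kb after treatment, with 48.1 and 38.4 kb of H3K79me2. The one at 62300001-62400000 of chromosome 10 had 50.9 and 11.9 kb of Pol II, with 74.9 and 66.1 kb of H3K79me2. Pol II at 119100001-119200000 of chromosome 8 dropped from 60.6 to 21.6 kb while H3K79me2 covered 96.6 and 95.4 kb. On chromosome 7 at 140200001-140300000 the 2 went in opposite directions, with 73.9 and 32.6 kb of Pol II against 21.4 and 67.8 kb of H3K79me2.

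Of the 5 windows with the greatest gains, 2 were neighbours on chromosome 15. From 61900001 to 62000000 Pol II went from 19.5 to 48.5 kb and from 62000001 to 62100000 from 13.0 to 37.4 kb. H3K79me2 already covered both windows in untreated cells, at 99.7 and 68.2 kb, and covered 98.3 and 68.6 kb after Adriamycin. The window at 125500001-125600000 of chromosome 5 had 20.8 kb of Pol II before and 46.6 kb after treatment, with 40.9 and 44.8 kb of H3K79me2. On chromosome 1 at 191600001-191700000 the number of Pol II peaks went from 7 to 44, and H3K27me3 from 1.91 kb to 0. The windows at chromosome 1 and chromosome 12 (17700001-17800000, 2 and 38 Pol II peaks) also gained H3K79me2 length, from 13.1 to 39.2 kb and from 37.8 to 74.0 kb.

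**Figure D5:**
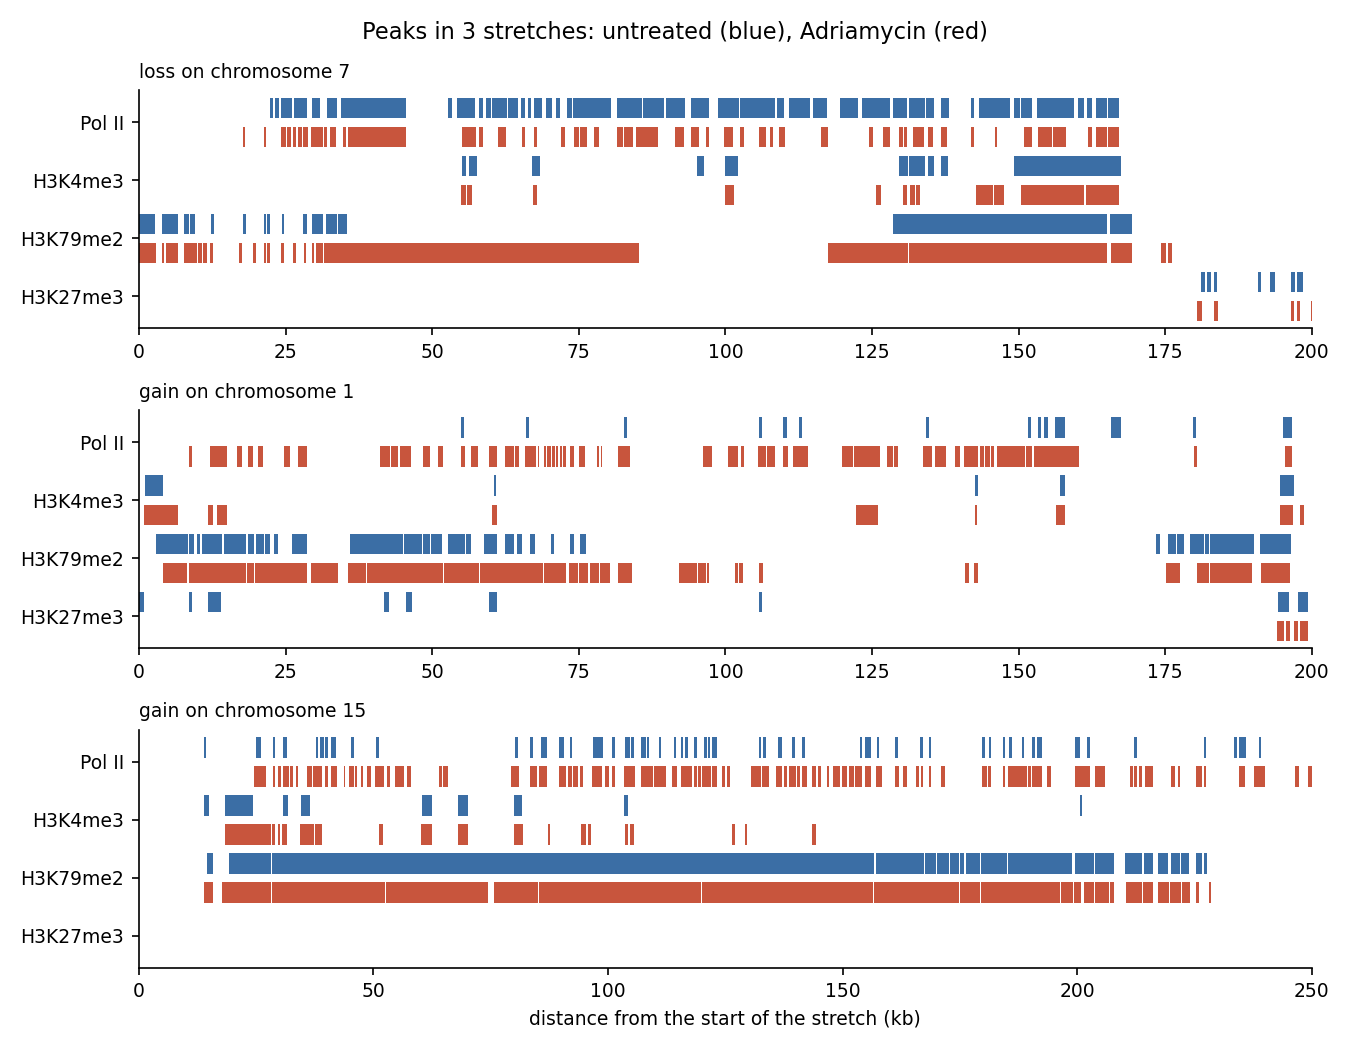
Peaks of Pol II and 3 histone marks in untreated (blue) and Adriamycin-treated cells (red) over the window of greatest loss (chromosome 7), the window of greatest gain (chromosome 1) and the 2 neighbouring gain windows on chromosome 15, against distance from the start of the stretch (kb), each window beginning at 50 kb. Pol II length fell from 73.9 to 32.6 kb in the chromosome 7 window and rose from 4.02 to 45.7 kb in the chromosome 1 window.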

How the data were processed

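Pol II, 3 histone marks and hnRNP L were profiled by ChIP-seq, 1 library per target and condition, 10 in all. Per the submitters' processing notes, CASAVA 1.8.2 and MACS 1.4.1 were used with mouse build mm9. Each deposited file is a peak list with the score of the authors' peak caller. Scores ranked, classed or filtered the peaks of each list, and because they can depend on depth, counts past the same score in both lists are no measure of Pol II strength. The labels and files state no read depth, input or peak-calling settings, so no depth per library or precision from it can be given. The members and lists were chosen with earlier results of these data known. Peaks were compared with Python 3.11.15, numpy 2.4.6, pandas 2.3.3 and SciPy 1.17.1 by overlap of at least 1 bp, width, covered length and score. Shares have exact Clopper-Pearson 95% intervals. With 1 library per group no test was made. Named regions are the 10 highest-scoring peaks of each list far from the other, the 5 longest domains of each list, the 5 windows of greatest gain and of greatest loss, and the 5 matched peaks that narrowed or widened most, of which some are printed. The mark-based promoter profile, bases by marks in both conditions, H3K79me2 domain lengths, chromosome X by score, unmet domains and the chromosome 9 stretch were chosen after values were seen. Counts by gene and marker genes were not run, since no mm9 annotation was used here. Alternatives were a score of at least 100 or 300, equal numbers of top-scoring peaks, merging within 1 kb and 50% overlap. The overlap step was tested on 20000 simulated peaks and recovered 8000 of 8000 shared ones.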

Additional observations from a re-analysis of the deposited data

Results flagged for a closer look

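Pol II peaks were also listed on chromosome Y, which the comparisons leave out. The untreated list held 9 there, covering 4.866 kb, and the Adriamycin list 4, covering 2.277 kb. Of these, 4 untreated and 3 Adriamycin peaks overlapped a peak of the other list. They are given because they lie outside the chromosomes compared, and their source was not tested.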

How the results depend on the processing

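The direction of every ratio and width difference named in this paragraph was kept, apart from bivalent bases and promoters with H3K27me3 and no H3K79me2. With equal numbers of top-scoring peaks their ratios of 0.929 and 0.963 became 1.07 and 1.13, and the cause was not tested. The covered length ratio was 0.635 with scores of at least 100, 0.825 with equal numbers and 0.695 with peaks within 1 kb merged. Untreated peaks without a partner were 48.4%, 37.2% and 43.3% under these settings and 48.9% with an overlap of 50% of the shorter peak, and Adriamycin peaks 16.3%, 33.2%, 25.7% and 26.8%. In the same order, untreated peaks without a partner were 33.2%, 24.6%, 22.9% and 31.1% at H3K4me3, 62.4%, 45.7%, 54.6% and 57.0% at H3K79me2 without H3K4me3, and 63.6%, 48.3%, 60.7% and 60.7% at no mark. At H3K27me3 alone they were 53.2% and 36.1% under the first pair of settings. The matched width difference was -72, -73 and -85 bp. Strong regions of untreated and Adriamycin cells numbered 602 and 45 when only overlapping peaks counted as near, 573 and 50 with scores of at least 300, and 188 and 31 with equal numbers. With scores of at least 100 and with equal numbers, the promoter ratio was 0.816 and 0.882 and the body ratio 0.663 and 0.785. By marks in both conditions the ratios were 0.755 and 0.824 at H3K4me3 with H3K79me2, 0.718 and 0.810 at H3K4me3 alone, 0.515 and 0.727 at H3K79me2 alone, 1.07 and 1.79 at H3K27me3 alone, and 0.573 and 0.862 at no mark. Bivalent bases stood at 0.823 with scores of at least 100. H3K79me2 domains of 100 kb and over had 0.429 and 0.640, and chromosome X 0.556 and 0.663. The planned counts of promoters that lost or gained a peak were not run, since no mm9 annotation was used here. No paired analysis was possible because each target and condition had 1 library. Depth was unknown, so it limits every value here.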

Other observations

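Pol II length was also read at bases where a histone mark was listed in 1 condition only. Where H3K4me3 was found in untreated cells only, Pol II length was 4.30 Mb before and 1.77 Mb after treatment, a ratio of 0.412. Where H3K4me3 was found after Adriamycin only, it was 1.49 and 1.505 Mb (1.01), and where it was found in both, 26.5 and 21.1 Mb (0.797). The same ratios for H3K79me2 were 0.633, 0.865 and 0.661, and for H3K27me3 0.987, 0.978 and 1.04. Pol II peaks that overlapped an hnRNP L peak of their own condition, an RNA-binding protein of splicing, numbered 137 in untreated cells and 89 after Adriamycin. Of these, 46.7% (38.1 to 55.4%) and 16.9% (9.75 to 26.3%) had no Pol II partner in the other list, against 48.0% and 26.1% of all peaks, values that both intervals include.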
